A study of Mus musculus with 23 samples.

Results

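Epididymal fat of mice with a KPC tumor of the pancreas was compared with epididymal fat of mice without a tumor. The comparison rests on 8 of the 23 RNA-seq libraries of the series, 4 from KPC and 4 from no tumor mice, and on the 16962 genes of the fat count table. All were C57BL/6J males that had surgery at 8 weeks of age and were euthanized when the KPC group showed overt wasting. No tumor mice had a sham operation, and KPC mice received an orthotopic injection of KPC cells. KPC cells are a line from a pancreatic tumor of a genetically engineered mouse that carried Pdx1-Cre and Trp53 R172H, and the cells injected were a single clone that had been transfected with a CRISPR plasmid carrying a null guide. Fat of 4 further mice, labelled KPC IL6KO and injected with a single Il6-edited KPC clone, entered 1 of the fits only to share its estimate of the spread. Each library came from 1 mouse, and the mice are numbered 5 to 8 in each group. The number was not taken to tie a KPC mouse to a no tumor mouse.

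White fat stores triglyceride in adipocytes and releases it as fatty acids through lipolysis, and it secretes hormones such as leptin and adiponectin. Between the adipocytes lie fibroblasts, vessels and macrophages, and in inflamed fat neutrophils and further macrophages enter. IL-6 acts through a receptor made of Il6ra and the shared chain gp130 (Il6st). It activates STAT3, which induces the feedback inhibitor Socs3 and, in liver and fat, acute phase proteins such as serum amyloid A. The epididymal fat pad lies against the epididymis and the vas deferens. Lists of epididymis, germ cell and skeletal muscle genes were therefore kept apart from genes of fat. Genes of the vas deferens had no list, and the smooth muscle list was not among those kept apart.

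Total counts ranged from 26306377 to 56308545 per library, so that 3 counts, taken as the floor of detection, were worth 0.0474 to 0.123 CPM (counts per 1000000 after TMM normalization, which corrects for library composition). Values below are CPM in the order of mice 5, 6, 7 and 8, and intervals and floors cover counting error only. Fold changes (FC) are given on the log2 scale as KPC minus no tumor, with their standard error (SE), from the fit of 12 libraries. A gene was called when its Benjamini-Hochberg FDR in edgeR's quasi-likelihood test was at most 0.05 and its FC at least 1.5. The median log2 FC of all genes was -0.10.

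The no tumor libraries fell into pairs by their level of Gpx5. Gpx5, a glutathione peroxidase of the caput epididymis, measured 39292, 52.2, 34256 and 4.81 CPM in no tumor fat and 28239, 40388, 24600 and 21347 CPM in KPC fat. No tumor 6 and 8 thus stood apart from the other 6 libraries. Whether these libraries differ in how much epididymis they hold or in which part of it was not tested. The 27 measured genes of the epididymis list summed to 119854, 15891, 95068 and 23320 CPM in no tumor fat and to 50638, 86479, 58307 and 55744 CPM in KPC fat, and took 1.51% to 10.2% of a library's counts. Crisp1, a sperm-coating protein of the epididymis that was looked at after its values were seen, ran from 1305 to 14517 CPM in no tumor and from 156 to 5328 CPM in KPC fat, which overlapped. A gene was marked as following this split when the no tumor and KPC IL6KO libraries high in Gpx5 differed from those low in it by more than 2-fold. This held for 572 genes that went with Gpx5 and 121 that went against it, 18 of the 27 epididymis genes among them.

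Genes of skeletal muscle and of smooth muscle were also unequal. The 19 skeletal muscle genes summed to 22.7, 196, 19.9 and 494 CPM in no tumor and to at most 25.99 CPM in KPC fat. Their median log2 FC was -3.70, with -0.27 without no tumor 6 and 8 and -4.47 without no tumor 5 and 7. Tnnc2, the fast troponin C, was at 10.7 and 38.9 CPM in no tumor 6 and 8 and at or under 0.327 CPM elsewhere. The alpha-actin Acta1 did the same, with 91.5 and 133 CPM in these libraries against 0.496 to 2.84 CPM in the other 6. The 10 smooth muscle genes summed to 2902, 3168, 1752 and 6564 CPM in no tumor fat. In KPC fat they summed to 346, 1108, 1007 and 729 CPM, so that all 4 KPC libraries were lower. Of the 10 genes 8 were lower without overlap between the groups, against 4.39% of all genes. Calponin (Cnn1) was at 29.96, 280, 31.2 and 631 CPM in no tumor and at 3.59, 17.5, 18.1 and 14.3 CPM in KPC fat. The 17 germ cell genes summed to 253 to 3513 CPM in no tumor and to 335 to 1704 CPM in KPC fat, which overlapped. None of the genes called below belongs to the epididymis, germ cell or skeletal muscle lists, and 0 of them follow the Gpx5 split. Genes of the split differ by more than 2-fold among no tumor libraries, so their spread made a call unlikely from the outset. Of the 121 genes against Gpx5, 21 were higher in KPC fat without overlap, and of the 572 with it 2. Over all genes 6.52% were. In bulk tissue, fewer cells of a type and less RNA per cell cannot be told apart.

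**Figure D1:**
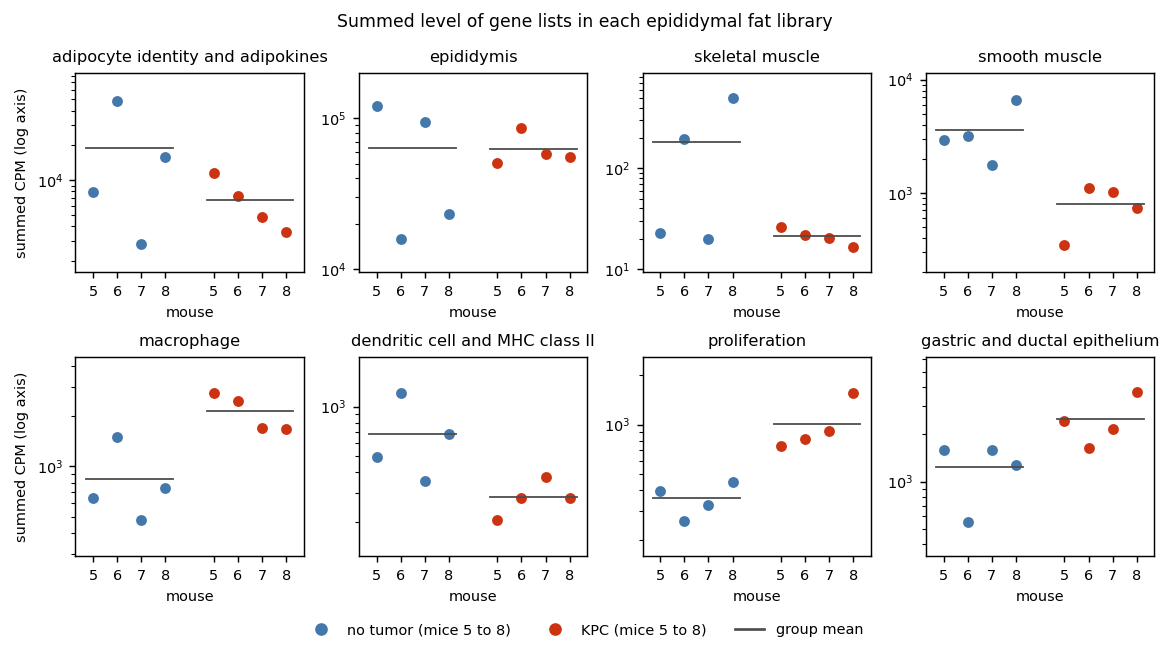
Summed CPM (log axis) of 8 gene lists in each of the 4 no tumor (blue) and 4 KPC (red) epididymal fat libraries, with the group mean as a line. Epididymis and skeletal muscle genes split no tumor 6 and 8 from no tumor 5 and 7, the adipocyte list overlaps between the groups, and the proliferation list is higher in all 4 KPC libraries.

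With the spread estimated over all 12 libraries, 0 of 16962 genes were called higher and 0 lower by the quasi-likelihood test, a background of 0.0% either way, and the lowest FDR was 0.0704 for Itih4. In that fit 2061 genes had an unadjusted p under 0.05, where 848 would be met by chance. The likelihood ratio test of edgeR called 268 higher and 145 lower on the same libraries, and DESeq2 called 364 higher and 221 lower. With the 8 libraries of the comparison alone, the quasi-likelihood test called 166 of 16758 genes higher in KPC fat (0.991%) and 8 lower (0.0477%). From here on, "called" refers to this fit of 8 libraries. Of these 174 genes, 173 had an unadjusted p under 0.05 in the fit of 12 libraries, where their FDR ran from 0.0704 to 0.423. The KPC libraries were above all no tumor libraries, or below all of them, for each of the 174, which was so for 6.52% (higher) and 4.39% (lower) of all genes.

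Most calls were lost when a single library was left out. Leaving out no tumor 8 left 0 calls by the quasi-likelihood test, with 2315 genes at an unadjusted p under 0.05. With no tumor 5, 6 or 7 left out, 2, 90 and 2 genes were called higher. Without no tumor 6 the fit also called 3 lower, and 66 of the 174 were among its calls. Leaving out KPC 5, 6, 7 or 8 left 6, 1, 6 and 8. Timp1 was called in 7 of these 8 fits, Saa3 in 5, Socs3 in 4, Ccl8 and Sh3pxd2b in 3, and 105 of the 174 genes in none. Without no tumor 6 and 8 the fit called 344 genes higher and 49 lower, 90 of the 174 among them. Without no tumor 5 and 7 it called 605 higher and 466 lower, 135 of the 174 among them. With log2 Gpx5 as a covariate the fit of 12 libraries called 127 genes higher and 12 lower, 39 of the 174 among them, and these included Socs3, Saa3, Itih4, Timp1, Ccl8, Penk and Dner. The plot of calls by setting shows these counts side by side.

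**Figure D2:**
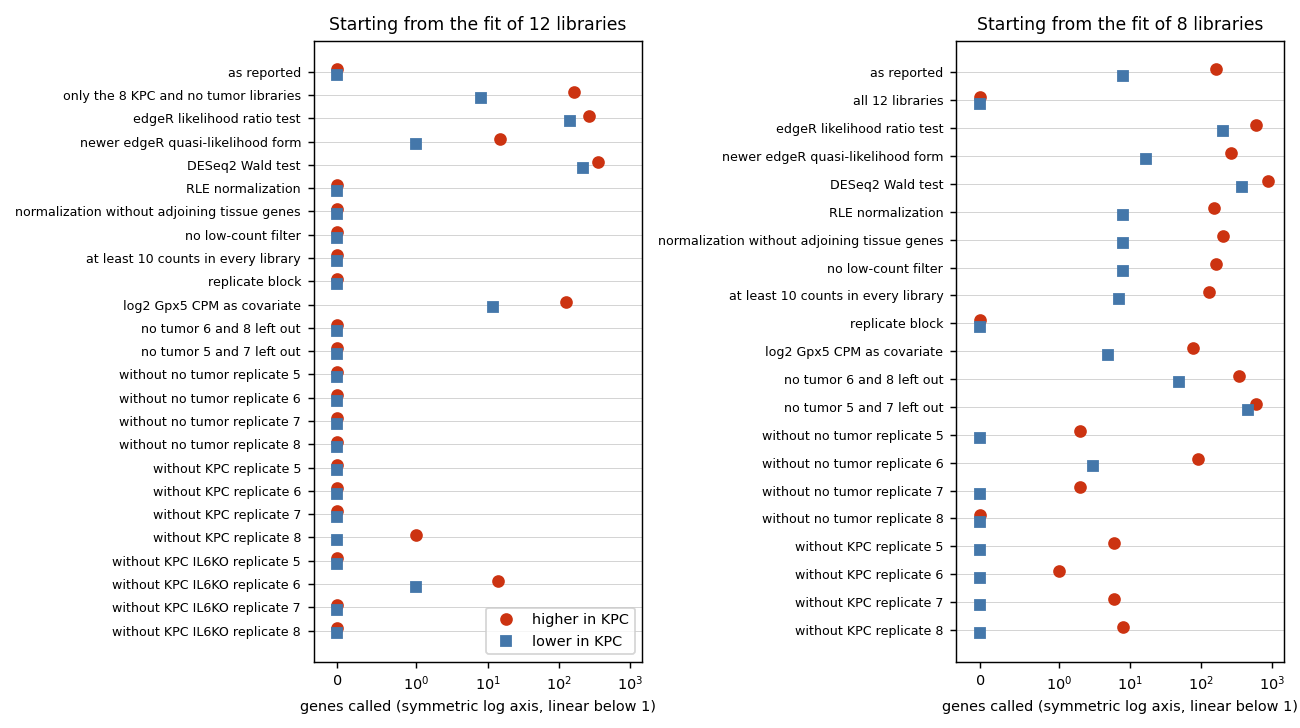
Number of genes called higher (red circles) and lower (blue squares) in KPC than in no tumor fat under each processing setting, from the fit of 12 libraries (left) and from the fit of 8 libraries (right), on an axis that is linear below 1 and logarithmic above. The reported fits called 0 genes (left) and 166 higher with 8 lower (right). With a single library left out, the fit of 8 called between 0 and 90 genes higher, not all of them among the 166.

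Of the 166 genes called higher, 39 belong to 1 or more of the 38 gene lists, which hold 564 genes. The lists with the highest medians and 5 or more measured genes were neutrophil, IL-6 family ligands and proliferation. Those with the lowest were skeletal muscle, smooth muscle and the adipocyte list. No gene called lower belongs to a list. With 0.991% of all genes called higher and 0.0477% lower, 0 calls in a single list says little about its members. Over all genes 6.52% were higher and 4.39% lower without overlap. These shares are the background for the counts given for each list below.

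**Figure D3:**
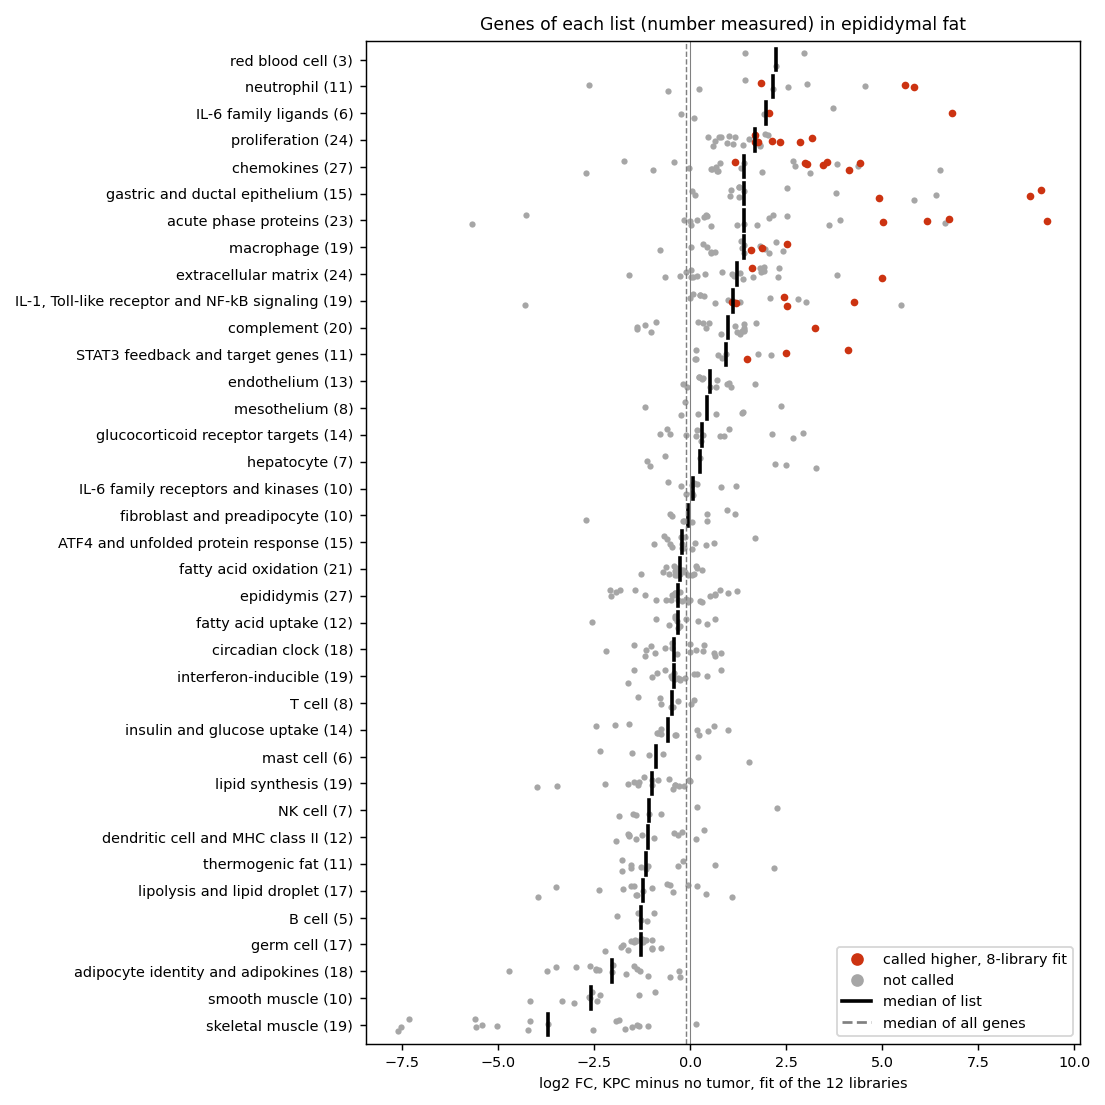
log2 FC (KPC minus no tumor, fit of 12 libraries) of the genes of each list with 3 or more measured genes, 1 point per gene, with genes called higher in the fit of 8 libraries in red and the median of the list as a bar. The medians of the neutrophil, macrophage, chemokine, matrix and proliferation lists lie to the right of the dashed median of all genes (-0.10), and those of the adipocyte, skeletal muscle, smooth muscle, lymphocyte and MHC class II lists to the left.

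Il6 itself was close to undetected in fat without a tumor and present in every KPC library. It measured 0, 0, 0.0232 and 0.0632 CPM in no tumor fat, 5 counts in all, and 3.97, 5.30, 2.19 and 2.02 CPM in KPC fat, 448 counts in all. All KPC libraries were above all no tumor libraries, with a log2 FC of 6.82 (SE 1.5) that rests on those 5 counts, an FDR of 0.0258 in the fit of 8 libraries and of 0.191 in the fit of 12. Clcf1, another cytokine of the family, was called higher as well, with a mean of 3.80 ± 0.92 CPM in no tumor and 15.8 ± 6.5 CPM in KPC fat (SD, n = 4 each). Of the 6 ligands 2 were called, and 4 (Il6, Lif, Osm and Clcf1) did not overlap between the groups.

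The receptor side of the pathway gave no call among its 10 genes, against 0.991% called higher and 0.0477% lower over all genes. Their median log2 FC was 0.06. Il6ra ran from 12.8 to 21.8 CPM in no tumor and from 16.4 to 23.2 CPM in KPC fat, and its log2 FC was 0.19 (SE 0.22). Il6st ran from 113 to 300 CPM and from 170 to 293 CPM, with a log2 FC of 0.05 (SE 0.34). For both receptor chains the groups overlapped. Stat3, the transcription factor downstream, measured 182, 143, 143 and 97.2 CPM in no tumor and 403, 221, 168 and 187 CPM in KPC fat, where 1 no tumor library lay above 1 KPC library, and was not called (FDR 0.246). Osmr, the oncostatin M receptor, was the 1 gene of the 10 whose groups did not overlap, at 28.6 to 47.5 CPM in no tumor and 54.6 to 160 CPM in KPC fat (FDR 0.159).

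Of 11 STAT3 feedback and target genes, all 11 had a log2 FC above 0 and 3 were called. The median was 0.93, with 1.58 without no tumor 6 and 8 and 1.11 without no tumor 5 and 7. Socs3 measured 2.29, 4.43, 2.42 and 4.41 CPM in no tumor and 91.2, 54.1, 41.9 and 45.1 CPM in KPC fat. Every KPC library was thus far above every no tumor library, with a log2 FC of 4.10 (SE 0.64), an FDR of 0.0258 with 8 and 0.0763 with 12 libraries. Bcl3, an NF-kB co-regulator, was called at 2.35 ± 1.18 CPM in no tumor against 13.3 ± 1.24 CPM in KPC fat. Junb, a subunit of AP-1, was called at 13.1 ± 4.1 CPM against 36.7 ± 8.3 CPM. The other 2 genes of this list whose groups did not overlap were Myc and Fos.

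Acute phase proteins are secreted in inflammation, mostly by the liver, and 23 of the 28 listed were in the table. Of these 4 were called higher (Saa2, Saa3, Itih4 and Serpina3m), 8 were above and 2 below without overlap, and the median log2 FC was 1.39. Saa3, the serum amyloid A of macrophages and adipocytes, measured 3.11, 5.81, 1.53 and 2.61 CPM in no tumor and 308, 282, 199 and 140 CPM in KPC fat. Its log2 FC was 6.16 (SE 1.23), with an FDR of 0.0164 with 8 and 0.168 with 12 libraries. Itih4, an inter-alpha-trypsin inhibitor heavy chain, went from 0.655, 1.83, 0.395 and 1.72 CPM to 60.0, 30.5, 47.0 and 12.8 CPM, with a log2 FC of 5.02 (SE 0.60) and an FDR of 0.0284 with 8 libraries. For both genes the lowest KPC library was several times the highest no tumor library.

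Saa2 had 2 counts in the 4 no tumor libraries together and 27.8, 5.59, 6.20 and 1.496 CPM in KPC fat, a ratio of pooled levels of 848 (95% counting interval 234 to 7009). Serpina3m, a serine protease inhibitor, ran from 0.491 to 2.01 CPM in no tumor fat and stood at 346, 65.1, 25.4 and 23.9 CPM in KPC fat, with KPC 5 far above the other 3. The list was not uniform. Orm1 and Orm3, orosomucoids that adipocytes also make, lay lower without overlap, Orm1 at 11.1, 153, 4.79 and 43.3 CPM in no tumor and at 2.83, 4.21, 2.80 and 0.976 CPM in KPC fat, and neither was called. Lcn2, a siderophore-binding lipocalin often read as an inflammation marker, measured 5112, 63.1, 3355 and 79.3 CPM in no tumor fat and 2846, 3188, 2175 and 1559 CPM in KPC fat. It followed the Gpx5 split, and without no tumor 6 and 8 its log2 FC was -0.79 where the full fit gave 0.18.

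The sequence before the start of 4 genes called in the IL-6, STAT3 and acute phase lists is shown. With a single library left out of the fit of 8, Saa3 was called in 5 fits and Socs3 in 4. Il6 and Itih4 were each called in at most 1 of these fits. Each window runs from 250 bases before to 50 bases after the RefSeq start in GRCm38.p6 and is written 5′ to 3′ on the strand of the gene. Capitals mark matches to 3 motifs searched on both strands, the STAT motif TTCNNNGAA, the C/EBP motif TTGCNNAAT and an NF-kB motif, the capitals GGGATTTTCC in Il6 with any base at the fifth position. The windows are chr5:30012864-30013163 on the plus strand for Il6, chr7:46715627-46715926 on the minus strand for Saa3, chr11:117969317-117969616 on the minus strand for Socs3, and chr14:30886226-30886525 on the plus strand for Itih4.
Il6: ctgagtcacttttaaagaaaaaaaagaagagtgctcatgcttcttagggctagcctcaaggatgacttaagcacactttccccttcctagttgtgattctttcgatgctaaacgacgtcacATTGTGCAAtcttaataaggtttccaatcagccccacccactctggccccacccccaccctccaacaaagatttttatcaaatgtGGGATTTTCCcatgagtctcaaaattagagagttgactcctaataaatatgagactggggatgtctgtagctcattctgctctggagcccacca
Saa3: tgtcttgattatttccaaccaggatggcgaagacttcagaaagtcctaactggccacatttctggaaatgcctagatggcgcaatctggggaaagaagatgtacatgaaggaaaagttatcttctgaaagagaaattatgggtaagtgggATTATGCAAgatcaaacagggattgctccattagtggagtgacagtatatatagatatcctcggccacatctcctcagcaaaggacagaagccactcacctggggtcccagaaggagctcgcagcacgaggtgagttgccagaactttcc
Socs3: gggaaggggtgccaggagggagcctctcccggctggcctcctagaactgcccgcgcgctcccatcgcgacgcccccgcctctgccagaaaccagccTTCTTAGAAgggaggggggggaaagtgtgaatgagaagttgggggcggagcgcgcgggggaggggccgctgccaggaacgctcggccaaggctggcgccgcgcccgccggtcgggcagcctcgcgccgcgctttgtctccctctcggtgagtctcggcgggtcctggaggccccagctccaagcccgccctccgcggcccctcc
Itih4: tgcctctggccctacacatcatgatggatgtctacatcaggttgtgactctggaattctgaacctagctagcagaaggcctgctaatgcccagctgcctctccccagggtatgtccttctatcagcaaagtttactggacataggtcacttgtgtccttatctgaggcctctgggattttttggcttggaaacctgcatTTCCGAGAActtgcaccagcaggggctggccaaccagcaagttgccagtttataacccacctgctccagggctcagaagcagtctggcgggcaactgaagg
Il6 held a C/EBP match whose first base lies 129 bases before the start and an NF-kB match 44 bases before it. Saa3 held a C/EBP match 100 bases before its start, Socs3 a STAT match 154 bases and Itih4 a STAT match 51 bases before theirs. The Saa3 and Il6 C/EBP matches read as the motif on the opposite strand. Among the 17 acute phase genes with a promoter in the table, 4 held the STAT motif, 6 the C/EBP motif and 0 the NF-kB motif. Of the 123 genes called higher that had a promoter, 18, 8 and 3 held them, that is 14.6%, 6.50% and 2.44%. Over all 27025 RefSeq genes with a promoter, not limited to genes of the fat count table, the shares were 9.55%, 2.77% and 0.466%. None of the 5 genes called lower with a promoter held any of the 3. A match is a run of letters and not evidence of binding.

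**Figure D4:**
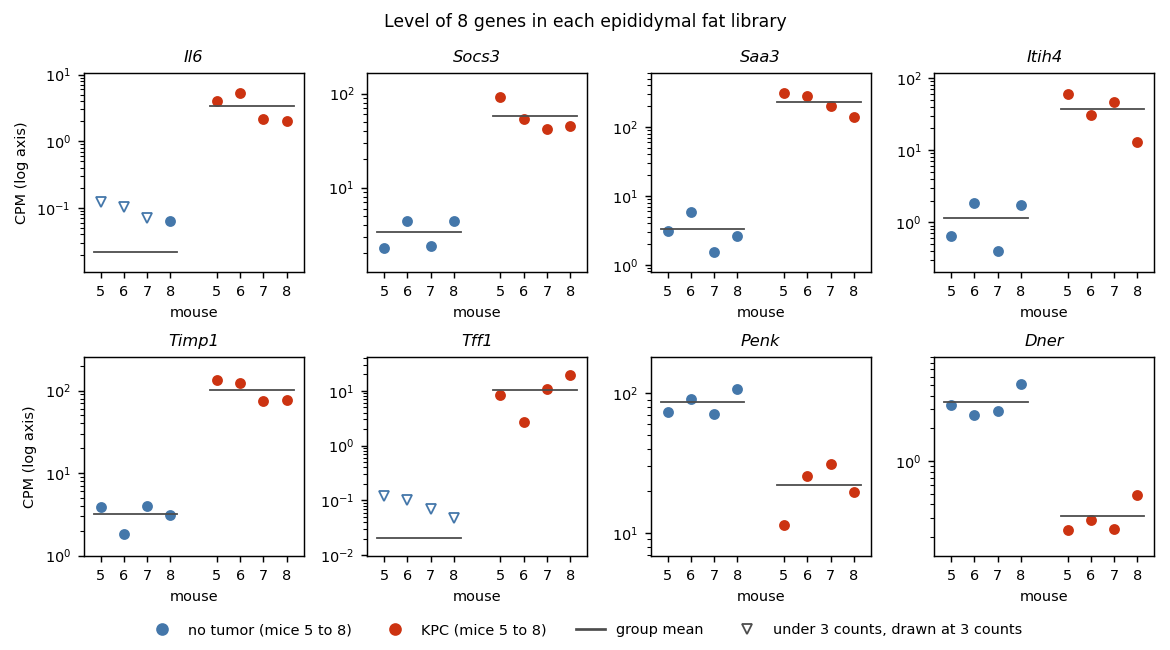
CPM (log axis) of 8 genes in each no tumor (blue) and KPC (red) library, with the group mean as a line and libraries under 3 counts drawn as open triangles at the level of 3 counts. Il6, Socs3, Saa3, Itih4, Timp1 and Tff1 are higher in all 4 KPC libraries, and Penk and Dner are lower in all 4.

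Chemokines, which recruit leukocytes, had a log2 FC above 0 in 22 of 27 measured genes. Of the 27, 7 were called (Ccl3, Ccl6, Ccl7, Ccl8, Cxcl1, Cxcl5 and Cxcl16), 16 were higher and 0 lower without overlap, and the median log2 FC was 1.40. Over all genes 0.991% were called higher, and 6.52% were higher and 4.39% lower without overlap. Ccl8, a chemokine for monocytes, measured 4.17, 4.77, 4.12 and 4.98 CPM in no tumor and 88.0, 32.8, 59.5 and 31.5 CPM in KPC fat, with a log2 FC of 3.55 (SE 0.55) and an FDR of 0.0258 with 8 and 0.0763 with 12 libraries. Ccl6, called as well, went from 39.8 ± 31.6 CPM to 434 ± 170 CPM. The neutrophil chemokines Cxcl1 and Cxcl5 were low in both groups, at 0.165 ± 0.076 and 0.240 ± 0.226 CPM in no tumor and 2.91 ± 2.15 and 5.04 ± 3.50 CPM in KPC fat. Cxcl3, of the same kind, had 3 counts in no tumor fat and 338 in KPC fat, a ratio of 139 (counting interval 47.1 to 676), and was not called. In the other direction Cxcl9, which interferon-gamma induces, was at 9.13, 47.5, 2.65 and 14.3 CPM in no tumor and at 6.13, 1.86, 2.19 and 1.04 CPM in KPC fat, with overlap.

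IL-1 and Toll-like receptor genes showed the same direction in 17 of 19 members, with 5 called (Il1rn, Cd14, Nfkbiz, Nlrp3 and Il33), 12 above without overlap and a median log2 FC of 1.11. Il1rn, the IL-1 receptor antagonist, measured 2.37, 0.657, 0.442 and 1.17 CPM in no tumor and 12.99, 11.1, 11.6 and 53.4 CPM in KPC fat, with KPC 8 apart from the other 3. Il1r2, the decoy receptor for IL-1, ran from 0.0232 to 0.585 CPM in no tumor and from 4.18 to 25.8 CPM in KPC fat but was not called (FDR 0.0654). Nlrp3, the inflammasome sensor, was called at 0.545 ± 0.214 CPM against 2.98 ± 1.14 CPM. Il33, an alarmin of stromal cells, was called with a smaller difference, 21.6 ± 4.7 CPM against 45.9 ± 4.4 CPM. Ptgs2, cyclooxygenase 2, was at 393 and 226 CPM in no tumor 6 and 8 and at 1.39 to 14.1 CPM in the other 6 libraries.

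Of 11 measured neutrophil markers 9 had a log2 FC above 0, 3 were called and 7 did not overlap, but the sums of the list overlapped. They were 12.4, 784, 145 and 386 CPM in no tumor and 85.7, 58.2, 94.3 and 173 CPM in KPC fat, most of it Ltf in no tumor 6, 7 and 8. The markers Ly6g, Camp and Ngp were not in the table. S100a9, a calprotectin subunit, measured 0.409, 0.104, 0.0465 and 0.206 CPM in no tumor and 15.7, 8.42, 7.24 and 5.01 CPM in KPC fat, with a log2 FC of 5.58 (SE 0.93) and an FDR of 0.0258 with 8 and 0.0919 with 12 libraries. Cxcr2, the receptor for Cxcl1 and Cxcl5, had 6 counts in no tumor fat and was at 2.83, 2.69, 2.02 and 1.40 CPM in KPC fat. Csf3r, the G-CSF receptor, was called at 2.91 ± 1.02 CPM against 10.4 ± 1.2 CPM. Ltf went the other way, at 2.33, 759, 138 and 365 CPM in no tumor and 2.38 to 137 CPM in KPC fat, with overlap.

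Macrophage markers summed to 645, 1505, 475 and 747 CPM in no tumor and to 2753, 2452, 1694 and 1679 CPM in KPC fat, so that each KPC library was above each no tumor library. Of 19 genes 18 had a log2 FC above 0, 3 were called (Cd14, Fcgr1 and Trem2) and 11 did not overlap. The median log2 FC was 1.39, with 1.98 without no tumor 6 and 8 and 0.95 without no tumor 5 and 7. Trem2, a lipid-sensing receptor of macrophages in fat, measured 6.30, 6.02, 5.25 and 5.31 CPM in no tumor and 15.9, 19.5, 17.1 and 16.6 CPM in KPC fat, the narrowest spread of the genes called in this list. Fcgr1, an Fc receptor, was called at 3.52 ± 0.61 CPM against 12.9 ± 2.0 CPM. Lyz2, lysozyme, lay higher without overlap at 93.9 to 461 CPM against 505 to 740 CPM, and was not called. Chil3, a chitinase-like protein of alternatively activated macrophages, was among the largest rises of all genes, at 2.70, 1.45, 0.116 and 0.775 CPM in no tumor and 426, 308, 131 and 164 CPM in KPC fat (log2 FC 7.70, SE 1.91, FDR 0.0258 with 8 and 0.225 with 12 libraries).

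Antigen presentation, lymphocytes and interferon genes did not show this rise. The 12 dendritic cell and MHC class II genes summed to 353 to 1209 CPM in no tumor and to 205 to 374 CPM in KPC fat, with 0 called, 2 lower without overlap and a median log2 FC of -1.11 that was -0.56 without no tumor 6 and 8 and -1.58 without no tumor 5 and 7. Cd74, the invariant chain, was at 167, 443, 115 and 244 CPM in no tumor and at 72.0, 90.4, 134 and 106 CPM in KPC fat, with overlap. The T cell, NK cell, B cell and mast cell lists had 0 genes called, against 0.991% higher and 0.0477% lower over all genes. Their medians were -0.48, -1.07, -1.29 and -0.89. Without no tumor 6 and 8 these were 0.09, -0.78, 0.56 and -0.06, so that the T and B cell medians changed sign, and without no tumor 5 and 7 they were -0.92, -1.03, -2.07 and -1.48. The 19 interferon-inducible genes had 0 called, 1 higher and 2 lower without overlap and a median of -0.41. Complement, with 20 genes, had a median of 0.99 that was 1.78 without no tumor 6 and 8 and 0.41 without no tumor 5 and 7. Of them 1 was called, Cfi, a protease that cleaves C3b, at 13.3, 5.09, 8.32 and 2.70 CPM in no tumor and 49.0, 39.9, 65.2 and 124 CPM in KPC fat.

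Genes of matrix turnover held the call with the lowest FDR in the fit of 8 libraries. Timp1, an inhibitor of matrix metalloproteinases, measured 3.93, 1.83, 4.00 and 3.13 CPM in no tumor and 136, 123, 74.1 and 76.8 CPM in KPC fat, with no overlap. Its log2 FC was 4.99 (SE 0.88), between 4.80 and 5.12 with 1 library left out, and its FDR was 0.00673 with 8 and 0.115 with 12 libraries. Mmp14, a membrane-bound metalloproteinase, was called at 69.6 ± 29.3 CPM against 211 ± 36.5 CPM. Of 24 matrix genes 20 had a log2 FC above 0, these 2 were called, 9 did not overlap (Col1a1, Col1a2, Col5a2, Fn1, Lox, Loxl2 and Mmp3 beside the 2), and the median was 1.21. The median was 2.31 without no tumor 6 and 8 and 0.59 without no tumor 5 and 7. The fibroblast list had a median of -0.06 with 0 called, and the endothelium list 0.51 with 0 called, which was 1.51 without no tumor 6 and 8 and 0.02 without no tumor 5 and 7.

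Cell cycle genes lay higher in KPC fat throughout the list. All 24 had a log2 FC above 0 and the median was 1.69, which was 1.54 without no tumor 6 and 8 and 1.58 without no tumor 5 and 7. Of the 24, 7 were called (Ccna2, Cdk1, Aurkb, Rrm2, Tyms, Mcm3 and Mcm6) and 18 did not overlap, and the list's sum was 263 to 450 CPM in no tumor and 741 to 1555 CPM in KPC fat. Ccna2, cyclin A2, measured 10.5, 6.05, 5.56 and 5.77 CPM in no tumor and 36.4, 52.2, 47.2 and 116 CPM in KPC fat, with KPC 8 highest. Rrm2, a ribonucleotide reductase subunit, was at 10.3, 5.57, 8.16 and 12.1 CPM and at 75.5, 41.0, 41.6 and 103.5 CPM. Top2a, topoisomerase II alpha, was higher without overlap at 14.05 to 48.2 CPM against 74.8 to 223.5 CPM, and was not called (FDR 0.0876).

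Several genes of gastric and ductal epithelium were near the floor without a tumor. All 15 measured genes of the list had a log2 FC above 0, with 3 called (Tff1, Tff2 and Muc1), 8 apart without overlap and a median of 1.39, which was 1.49 without no tumor 6 and 8 and 2.73 without no tumor 5 and 7. Tff1, a trefoil peptide of gastric mucus, had 2 counts in no tumor fat, both in no tumor 5, and measured 8.41, 2.66, 10.7 and 19.3 CPM in KPC fat, a ratio of 795 (counting interval 220 to 6572). Tff2 had 6 counts in no tumor fat and was at 3.71, 3.47, 49.2 and 38.7 CPM in KPC fat. Muc1, a membrane mucin, measured 3.60, 2.46, 1.91 and 6.10 CPM in no tumor and 90.9, 22, 91.8 and 225 CPM in KPC fat, where KPC 6 was lowest and KPC 8 highest. Of the epithelial genes that the epididymis also expresses, Krt18 was higher without overlap at 98.5 to 398 CPM against 525 to 1038 CPM, and Epcam overlapped at 106 to 355 CPM against 218 to 284 CPM.

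Several of the largest rises outside the lists were, like Muc1, lowest in KPC 6 and highest in KPC 8 among the KPC libraries. Otop3, a proton channel, measured 0.491, 0.138, 0 and 0.0632 CPM in no tumor and 19.7, 5.30, 18.5 and 39.9 CPM in KPC fat. Arl14, a small GTPase, was at 0 to 0.246 CPM and at 11.2, 4.21, 9.33 and 32.6 CPM. Cxcl17, a mucosal chemokine, had 7 counts in no tumor fat and was at 5.90, 1.03, 5.73 and 10.5 CPM in KPC fat. Klhl1, with 3 counts in no tumor and 552 in KPC fat (ratio 227, counting interval 77.1 to 1102), and Tm4sf20, with 5 and 703 counts (ratio 173, 73.9 to 535), had the same lowest and highest library. All of these were called but Tm4sf20 (FDR 0.0522). The 1 acinar gene measured of 12, Rnase1, overlapped at 0.164 to 5.50 CPM without and 0.672 to 1.69 CPM with a KPC tumor, and its log2 FC of -0.99 was 0.83 without no tumor 6 and 8. Whether tumor cells in the fat contributed to the epithelial genes was not tested.

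Other genes with the lowest FDR in the fit of 8 libraries were Ptx3, Il5ra, Ms4a6d, Sh3pxd2b and Fam167b, each at an FDR of 0.0258. Ptx3, the long pentraxin of innate immunity, was at 0.843 ± 0.345 CPM in no tumor and 9.62 ± 3.27 CPM in KPC fat. Il5ra, the IL-5 receptor alpha chain, was at 0.364 ± 0.189 CPM and 18.9 ± 11.6 CPM. Ms4a6d, a membrane protein of myeloid cells, was at 3.64 ± 1.58 CPM and 41.9 ± 12.5 CPM. Sh3pxd2b, an adaptor of podosomes, was at 19.9 ± 2.8 CPM and 93.4 ± 30.9 CPM. Fam167b measured 0.737, 0.830, 0.814 and 0.617 CPM in no tumor and 8.64, 8.42, 5.22 and 4.29 CPM in KPC fat. In all 5 the lowest KPC library was above the highest no tumor library. Fgf23, a hormone of phosphate balance, had a large log2 FC whose size was raised by 1 library, at 17.5 CPM in KPC 5 and 0.813 to 1.41 CPM in the other 3. No tumor fat had 5 counts, at 0.173 CPM in no tumor 6 and 0 CPM elsewhere, so each KPC library was higher.

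The adipocyte list was lower on average in KPC fat, but no member was called, and the no tumor libraries differed widely among themselves. All 18 genes had a log2 FC below 0, with a median of -2.03. The list summed to 7875, 48640, 2787 and 15981 CPM in no tumor and to 11552, 7277, 4850 and 3582 CPM in KPC fat, so the groups overlapped. Without no tumor 6 and 8 the median was -0.48, and without no tumor 5 and 7 it was -2.78. Adipoq (adiponectin) and Lep (leptin) were chosen after their values were seen. Adipoq measured 446, 2830, 123 and 991 CPM in no tumor and 324, 323, 251 and 189 CPM in KPC fat, and Lep 162, 948, 70.2 and 224 CPM against 10.7, 76.1, 13.8 and 4.26 CPM. Adiponectin in no tumor 7 lay below all 4 KPC libraries, and leptin overlapped only in that KPC 6 lay above no tumor 7. Sncg, gamma-synuclein, was the 1 gene of the 18 without overlap, at 109, 720, 34.8 and 119 CPM against 11.7, 11.3, 8.89 and 5.07 CPM, with a log2 FC of -4.73 (SE 1.04), an FDR of 0.0706 with 8 and 0.191 with 12 libraries. Car3, carbonic anhydrase 3, was at 946 to 19733 CPM and at 1026 to 1995 CPM.

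Lipid handling genes followed the same lines. Of 17 lipolysis and lipid droplet genes 0 were called, and the median log2 FC was -1.24, but 0.59 without no tumor 6 and 8 and -1.80 without no tumor 5 and 7. Npr3, the clearance receptor for natriuretic peptides, was the 1 without overlap, at 205, 1026, 64.7 and 181 CPM against 32.4, 41.5, 13.6 and 7.41 CPM (FDR 0.114). Plin2, a lipid droplet coat protein, had the highest log2 FC of the list, 1.09 (SE 0.80), with 488 CPM in KPC 5 and 81.7 to 126 CPM in the other KPC libraries. All 19 lipid synthesis genes had a log2 FC below 0, with 0 called, 4 lower without overlap (Fasn, Dgat2, Slc25a1 and Insig1) and a median of -0.99, which was -0.26 without no tumor 6 and 8 and -0.95 without no tumor 5 and 7. Thrsp, a regulator of lipogenesis, was at 112, 1090, 45.2 and 302 CPM against 11.5, 55.9, 18.5 and 11.4 CPM, where KPC 6 lay above no tumor 7. Scd1, stearoyl-CoA desaturase, was at 11264 CPM in KPC 5 and 908 to 1078 CPM in the other 3, within or below the no tumor range of 1866 to 28714 CPM.

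Fatty acid uptake and oxidation lists had medians of -0.33 and -0.27 and 0 genes called, and both medians turned positive, to 0.32 and 0.30, without no tumor 6 and 8. Lpl, lipoprotein lipase, measured 1987, 11802, 765 and 3314 CPM in no tumor and 1063, 970, 431 and 546 CPM in KPC fat, with overlap in no tumor 7. Fabp4, the adipocyte fatty acid binding protein, was at 567 to 9161 CPM and 1124 to 7074 CPM, and its direction turned without no tumor 6. Of 11 thermogenic genes 0 were called, with a median of -1.14 that was -0.05 without no tumor 6 and 8 and -1.64 without no tumor 5 and 7. Ucp1, the uncoupling protein of brown fat, was low except in no tumor 6, at 0.0409, 8.30, 0.116 and 0.285 CPM in no tumor and 1.52, 0.487, 0.438 and 0.0650 CPM in KPC fat. Of 14 insulin and glucose uptake genes 0 were called, 2 were higher (Slc2a1 and Akt1) and 2 lower (Hk2 and Tbc1d4) without overlap, and the median of -0.57 was 0.27 without no tumor 6 and 8 and -0.74 without no tumor 5 and 7. Slc2a4 (GLUT4) was at 18.8 to 254 CPM and 14.5 to 25.2 CPM, with overlap. Slc2a1 (GLUT1) was higher without overlap, at 23.2 ± 2.2 CPM against 45.7 ± 14.9 CPM (FDR 0.0961).

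Hormone and stress programs gave no call, which says little, since only 0.991% of all genes were called higher and 0.0477% lower. Over all genes, 6.52% were higher and 4.39% lower without overlap. Of 14 glucocorticoid receptor targets 4 were higher without overlap (Mt1, Mt2, Errfi1 and Ddit4), and the metallothionein Mt2 measured 73.3, 60.3, 69.6 and 58.6 CPM in no tumor and 1153, 426, 228 and 185 CPM in KPC fat (FDR 0.0625). Of 18 clock genes 5 were lower without overlap (Per3, Dbp, Tef, Hlf and Ciart), and the clock output Dbp was at 24.6, 135, 27.6 and 70.9 CPM against 9.58, 17.3, 15.1 and 14.7 CPM (FDR 0.131). The time of day of collection was not given in the sources used here. The 15 ATF4 and unfolded protein response genes had a median of -0.21 with 0 called and 0 without overlap. The mesothelium, hepatocyte and red blood cell lists had medians of 0.44, 0.24 and 2.24 over 8, 7 and 3 genes, with 0 called. Without no tumor 6 and 8 these were 2.34, 1.36 and 2.30, and without no tumor 5 and 7 they were 0.22, 0.10 and 2.44. Of the 8 mesothelium genes 4 followed the Gpx5 split, being lower where Gpx5 was high.

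The 8 genes called lower were Penk, Dner, Glt8d2, D430019H16Rik, Sult1e1, Susd2, Tcta and Aff3. Penk, the precursor of enkephalin, measured 73.6, 91.6, 70.6 and 108 CPM in no tumor and 11.5, 25.5, 31.3 and 19.6 CPM in KPC fat. It had the narrowest SE of the 8 but for Tcta, with a log2 FC of -1.97 (SE 0.28), an FDR of 0.0435 with 8 and 0.0763 with 12 libraries. Dner, a ligand of Notch, was at 3.32, 2.66, 2.86 and 5.15 CPM against 0.234, 0.286, 0.236 and 0.488 CPM, with a log2 FC of -3.48 (SE 0.59) and an FDR of 0.0258 with 8 and 0.101 with 12 libraries. Sult1e1, the estrogen sulfotransferase, was at 36.2 ± 16.01 CPM against 6.13 ± 2.40 CPM. Tcta had the smallest difference of the 8, at 62.4 ± 6.4 CPM against 35.2 ± 1.3 CPM. Susd2, Aff3, Glt8d2 and D430019H16Rik fell from means of 14.1, 7.80, 7.60 and 12.02 CPM to 4.04, 2.76, 1.02 and 0.937 CPM. The highest no tumor library was less than 3-fold the lowest in 6 of the 8 genes, Glt8d2 and D430019H16Rik being the other two.

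Outside the epididymis, germ cell and skeletal muscle lists and the Gpx5 split, the 10 largest falls without overlap, at a mean level of at least 1 on the log2 CPM scale, were other genes, and none was called. In all of them no tumor 6 or no tumor 8 was the highest library. Akr1b7, an aldo-keto reductase of the mouse vas deferens, measured 48.8, 4266, 19.6 and 4249 CPM in no tumor and 1.09 to 9.33 CPM in KPC fat. Gm9573 was at 15.2 and 15.8 CPM in no tumor 6 and 8 and at or under 0.232 CPM in the other 6 libraries, and Psca at 46.8 CPM in no tumor 8 and at or under 1.63 CPM elsewhere. Nnat, neuronatin, ran at 239, 1224, 49.6 and 224 CPM against 1.96, 21.0, 19.6 and 8.23 CPM (FDR 0.0966), and Pnpla3, a lipid droplet hydrolase, at 111, 252, 32.4 and 72.1 CPM against 0.788, 11.4, 10.3 and 2.60 CPM (FDR 0.0984). Cdsn, corneodesmosin, was at 124 CPM in no tumor 6 and 2.56 to 18.1 CPM in the other 3, against 0.876 to 2.09 CPM in KPC fat. Orm1, Orm3, Cnn1 and Sncg complete the 10. How far the vas deferens, muscle or adipocyte content of no tumor 6 and 8 set these falls was not tested.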

How the data were processed

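RNA of epididymal fat was sequenced in paired 75-base reads. Per the labels, reads were counted per gene with featureCounts 1.5.1 after alignment with STAR to mm10, and the authors deposited raw counts, whole numbers without normalization, in a fat table of 16962 genes. How low-count genes had been left out and whether counting used strand are not given in the sources used here, so overlapping and antisense genes are uncertain. The labels and the study's methods name different RNA and library kits, and the least RNA integrity accepted also differs between them. Columns were assigned to mice from the sample titles.

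Counts were normalized by TMM and fitted with edgeR 4.0.16 (R 4.3.3) by the quasi-likelihood test, with filterByExpr, over 12 libraries (4 each of no tumor, KPC and KPC IL6KO) and again over the 8 compared, for 16962 and 16758 genes. A call needed an FC of 1.5 or more and an FDR (Benjamini-Hochberg over all genes tested) of 0.05 or less. The biological coefficient of variation was 63.5% with 12 and 55.7% with 8 libraries. Both fits were also run on simulated counts with 200 genes changed in KPC. Those counts held no split by adjoining tissue, so they do not test the fits under it. DESeq2 1.42.0 was an alternative. p-values weigh the difference between groups against the spread between libraries, each from 1 mouse. That spread includes unequal levels of adjoining tissue genes, and in the fit of 12 libraries also the spread of KPC IL6KO mice. No 2 libraries of a group agreed within sampling noise. Gene positions and promoters are of GRCm38.p6, with 16910 of 16962 symbols matched. SE come from the coefficient and its F statistic. Alternatives were other tests, normalizations, filters, a replicate block, log2 Gpx5 as a covariate, and libraries left out singly or in pairs. Muscle libraries were not used here. The gene lists, the Gpx5 split, the choice of fits and the members were set with earlier results of these data known. Named genes are the IL-6 pathway, the 10 largest rises and falls without overlap outside the adjoining tissue lists and the Gpx5 split at a mean log2 CPM of at least 1, from the genes of each list with the highest mean CPM or the largest change, the 10 with lowest FDR called higher, those called lower and called members of lists.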

Additional observations from a re-analysis of the deposited data

Results flagged for a closer look

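In 206 groups of 4 libraries, 14 held a library whose gap to its nearest neighbour took a share of the group's range above the 95% critical value for 4 samples, on the log2(CPM + 0.5) scale, where chance gives about 1 in 20. KPC 5 stood apart in 4 genes, high in Scd1 (gap 0.932 of the range, 11264 CPM against 908 to 1078 CPM in the others), Il6st (0.871) and Fgf23 (0.856) and low in Cnn1 (0.849). KPC 8 stood apart in Il1rn (0.901, 53.4 CPM against 11.1 to 12.99 CPM) and Aurkb (0.882, 23.6 CPM against 11.7 to 12.8 CPM). No tumor 5 was high in Ccna2 (0.867) and alone above 0 in Tff1 (1.0) and Cxcl3 (1.0), both at no more than 3 counts. No tumor 6 was high in Ucp1 (0.867), low in Krt18 (0.855) and alone above 0 in Fgf23 (1.0). No tumor 7 was high in Junb (0.830) and low in Mcm3 (0.835).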

How the results depend on the processing

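From the quasi-likelihood fit of 12 libraries, which called 0 genes higher and 0 lower, counts changed with the fit of 8 libraries (166 higher, 8 lower), edgeR's likelihood ratio test (268 and 145), its newer quasi-likelihood form (15 and 1), DESeq2 (364 and 221) and log2 Gpx5 as a covariate (127 and 12). With a single library left out they ranged from 0 to 14 higher and from 0 to 1 lower, with 1 higher without KPC 8 and 14 higher and 1 lower without KPC IL6KO 6. They stayed at 0 under the other normalizations, filters, the replicate block and the fits without no tumor 6 and 8 or 5 and 7. From the fit of 8 libraries (166 and 8), counts were 0 and 0 with all 12 libraries, 603 and 203 by the likelihood ratio test, 268 and 17 by the newer form, 874 and 384 by DESeq2, 77 and 5 with the covariate, 344 and 49 without no tumor 6 and 8, 605 and 466 without no tumor 5 and 7, and 0 to 90 higher and 0 to 3 lower with a single library left out. The cause was not tested. The numbers 5 to 8 name different mice in each group and were not treated as pairs. Same-numbered libraries deviated together with a correlation of 0.131, -0.051, 0.216 and -0.087. Differently numbered libraries were not compared, so these values cannot tell whether same-numbered mice shared a batch. The replicate block left 0 and 0 calls from the fit of 8 libraries by the quasi-likelihood test, with 2310 genes at an unadjusted p under 0.05.

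Of 2442 log2 FC values of 103 named genes under 24 alternatives to the fit of 12 libraries, which had no call to lose, 2174 kept direction and stayed uncalled, 238 gained a call and 30 in 9 genes changed direction. Of the 174 calls of the fit of 8 libraries, 105 were made in no fit with a single library left out. The genes that changed direction with log2 Gpx5 as a covariate were Lcn2 (-0.40), Ptgs2 (0.49), Epcam (-0.29), Fabp4 (0.74), Rnase1 (1.18) and Ucp1 (2.15). Without no tumor 6 and 8 they were Gpx5 (-0.36), Lcn2 (-0.79), Ptgs2 (0.80), Epcam (-0.44), Fabp4 (1.46), Scd1 (0.23), Rnase1 (0.83) and Ucp1 (2.88). Without no tumor 5 and 7 it was Il6st (-0.37), and with the replicate block Ucp1 (0.79). With a single library left out, ranges crossed 0 for Il6st (-0.18 to 0.33), Lcn2 (-0.22 to 1.07), Epcam (-0.20 to 0.27), Fabp4 (-1.13 to 0.76), Scd1 (-3.28 to 0.018), Rnase1 (-1.38 to 0.040) and Ucp1 (-2.71 to 2.00). Of 911 list medians, 834 moved by less than the SD between mice and 77 by more. Normalization without the adjoining tissue genes moved the median of all genes from -0.10 to -0.02. At 3 counts, 0.0474 to 0.123 CPM, the no tumor level of Tff1, Saa2, Cxcl3 and Klhl1 was at or near the floor, so their size of change is not resolved.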
